A study of Mus musculus with 8 samples.

Results

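The effector and exhaustion transcription factors described here are Tox, Tox2, Tbx21, Eomes, Prdm1, Id2, Batf, Irf4, Nfil3 and Bhlhe40. They are 10 of the 32285 genes in the expression matrices and were chosen by name, without a cut on any measured value. All 10 were detected in every library and passed every filter on low counts, so that none dropped out of a test.

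Single-cell transcripts and CRISPR guides were read in OT-I T cells, CD8+ T cells that recognise ovalbumin and whose T cell receptor is fixed by a transgene on a Rag2-deficient background. The donors also carried Rosa26-Cas9, so that the nuclease was expressed in all their cells. Activated cells received a lentiviral library of guides against metabolic genes, were enriched for the vector marker CD90.1 and were transferred into Rosa26-Cas9 mice with an intact immune system and orthotopic KPC_OVA tumours, a mouse pancreatic ductal adenocarcinoma line made to express ovalbumin. From the day of transfer the mice received anti-PD-1, an antibody that blocks the inhibitory receptor PD-1, or control IgG, and CD90.1+ OT-I cells were sorted from the tumours on day 7. There were 3 anti-PD-1 libraries and 1 IgG library, and all cells carried Cas9 and 1 guide, including the nontargeting controls (sgNT).

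Of 56359 barcodes, 23059 with exactly 1 called guide were kept, between 2535 and 6432 per anti-PD-1 library and 11495 with IgG. Median depth was 16829, 16325 and 12084 UMIs per cell in anti-PD-1 replicates 1, 2 and 3 and 6329 with IgG, so that shares of cells are given after each cell was thinned to 3000 UMIs. All 7 identity genes of CD8 T cells were detected in every library at a summed 5619 to 6212 UMIs per 1000000 gene UMIs of the kept cells (CPM), whereas lists for 7 other cell types reached between 0.104 and 24.2 CPM, apart from 145 for B or plasma cell genes in replicate 3, of which 93.7% lay in 1 cell. Replicates 1 and 2 stood apart from replicate 3 and IgG in several members and in the T cell receptor gene Trac, which had 1918 and 1769 CPM in the former and 798 and 700 in the latter. No label names a batch. The study's methods give each sample a channel of its own and correct for a batch effect without naming the libraries of a batch, and the titles of replicates 1 and 2 share a prefix that the others lack. Whether these came from separate mice is not stated, so that p-values measure the spread between libraries, which may be technical. The libraries shared between 3 and 18 cell barcodes per pair.

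CD8 T cells that meet antigen in a tumour can become killer cells that make cytokines and granzymes, or pass under lasting stimulation into exhaustion, in which inhibitory receptors accumulate and a precursor pool marked by the factor TCF1 renews the rest. The factors named above sit at the branches of this process. TOX and its paralogue TOX2 are associated with exhaustion, T-bet (Tbx21) and EOMES are T-box factors of effector and memory cells, BLIMP-1 (Prdm1) is a transcriptional repressor that promotes terminal differentiation, and ID2 withholds E proteins from DNA. BATF and IRF4 bind DNA together downstream of the T cell receptor, NFIL3 is a basic leucine zipper factor, and BHLHE40 is a basic helix-loop-helix repressor induced by activation.

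In the GENCODE M21 annotation of GRCm38, Tox lies at chr4:6686353-6991557 and Tox2 at chr2:163203125-163324170, Tbx21 at chr11:97098071-97115331 and Eomes at chr9:118478212-118486132. Prdm1 lies at chr10:44437177-44528501 and Id2 at chr12:25093799-25097140, Batf at chr12:85686669-85709087 and Irf4 at chr13:30749226-30766976, Nfil3 at chr13:52967209-52981073 and Bhlhe40 at chr6:108660629-108666925.

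Promoter windows of 250 bases before the RefSeq start site were read for the 4 members that separated precursor-high from inhibitory receptor-high cells without overlap between libraries, as 19% of 11184 genes did. They are shown since 3 of them moved together and Eomes moved the other way. The sequences are from RefSeq for GRCm38.p6 and run 5′ to 3′ on the strand of the gene. They are Eomes at chr9:118477939-118478188 on the plus strand and, on the minus strand, Prdm1 at chr10:44458749-44458998, Id2 at chr12:25096093-25096342 and Nfil3 at chr13:52981040-52981289. The Prdm1 and Id2 start sites lie 69753 and 1048 bases inside the gene spans given above, whose outer ends belong to a retained-intron transcript of Prdm1 and a longer coding transcript of Id2, and each coincides with the start of another coding transcript in GENCODE. For Eomes and Nfil3 the nearest GENCODE start lay 23 and 34 bases away. Capitals mark an AP-1 and BATF motif (TGANTCA) in Prdm1 and a paired IRF motif (GAAANNGAAA) in Eomes.
Eomes: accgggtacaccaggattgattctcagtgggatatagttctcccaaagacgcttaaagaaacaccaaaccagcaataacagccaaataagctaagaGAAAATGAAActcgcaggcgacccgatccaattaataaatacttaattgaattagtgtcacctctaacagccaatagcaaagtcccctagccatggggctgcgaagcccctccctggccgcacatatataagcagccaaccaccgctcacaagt
Prdm1: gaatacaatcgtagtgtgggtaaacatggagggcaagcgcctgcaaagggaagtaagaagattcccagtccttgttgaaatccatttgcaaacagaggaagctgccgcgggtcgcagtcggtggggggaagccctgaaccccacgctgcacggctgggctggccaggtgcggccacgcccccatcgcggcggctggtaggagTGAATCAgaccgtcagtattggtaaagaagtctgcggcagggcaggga
Id2: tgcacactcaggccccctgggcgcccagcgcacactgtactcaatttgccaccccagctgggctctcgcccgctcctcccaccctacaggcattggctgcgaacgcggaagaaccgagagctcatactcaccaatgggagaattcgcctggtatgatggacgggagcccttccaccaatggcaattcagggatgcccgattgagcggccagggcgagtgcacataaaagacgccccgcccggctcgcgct
Nfil3: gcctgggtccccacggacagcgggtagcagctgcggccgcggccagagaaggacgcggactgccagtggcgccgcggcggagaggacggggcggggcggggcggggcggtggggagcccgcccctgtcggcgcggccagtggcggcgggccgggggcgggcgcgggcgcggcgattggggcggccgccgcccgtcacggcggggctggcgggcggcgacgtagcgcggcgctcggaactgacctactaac

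The Prdm1 match began 48 bases before the start site as TGAATCA, and the Eomes match 154 bases before it as GAAAATGAAA. Among 32851 windows of the same length, on both strands, 6.75% held TGANTCA and 2.98% held GAAANNGAAA. Motifs of the members themselves were otherwise absent from these 4 windows, namely the E-box CACGTG (6.02% of all windows), the T-box core GTGTGA (12.3%), the NFIL3 motif TTANGTAA (2.06%) and the PRDM1 motif AGTGAAAG (1.09%). A CRE (TGACGTCA, 1.55%), the TCF1 motif CTTTGAT (3.21%), its variant CTTTGAA (4.46%) and the NFAT core GGAAA (55.6%) also had no match in them. Base composition ranged from 46.4% GC in Eomes to 81.6% in Nfil3, with 59.2% in Prdm1 and 62.8% in Id2, around a median of 52.4% over all windows. A match is a run of letters and not a bound site. Windows existed for 8 members, 12 in all.

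The 10 factors spanned a wide range of expression, with Id2 far above the others. The assay counts 1 end of each transcript, so that no scaling by gene length was applied. Over the 4 libraries the mean was 536 ± 78.7 CPM for Id2, 155 ± 56.0 for Bhlhe40, 123 ± 58.4 for Tox and 85.1 ± 21.2 for Batf (SD, n = 4). Prdm1 followed at 43.9 ± 7.47 CPM, Irf4 at 35.1 ± 3.84, Nfil3 at 31.5 ± 2.95, Tbx21 at 29.2 ± 3.13, Eomes at 25.8 ± 2.95 and Tox2 at 22.0 ± 8.60. Id2 was above all other members in every library. Bhlhe40 was above Tox and Tox above Batf in each of the 4 libraries, although the range of Tox overlapped those of both. Every Bhlhe40 value, from 108 to 215 CPM, lay above every Batf value. Every Batf value in turn, from 60.1 to 105 CPM, lay above every Prdm1 value, from 33.6 to 51.2 CPM. From Prdm1 down to Tox2 the ranges of neighbouring genes overlapped.

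After thinning to 3000 UMIs, Id2 was found in 66.8%, 68.9% and 72.5% of the cells of anti-PD-1 replicates 1, 2 and 3 and in 60.6% with IgG. Tox was found in 40.7%, 36.5% and 20.3% with anti-PD-1 and in 16.0% with IgG, and Tox2 in 8.40%, 8.43%, 5.28% and 3.30%. Without thinning the shares for Tox were 83.9%, 79.3%, 49.2% and 28.8%, which follow depth. Of genes of other cell types, Lyz2, Krt8, Col1a1 and Cd79a were each found in 0% to 0.344% of the thinned cells. All 10 members exceeded these genes in every library. Summed lists of such markers were higher, at 24.2 CPM for macrophage or dendritic cell genes with IgG. Tox2 alone had 11.8 CPM there, so that the level of free RNA depends on the genes chosen. A thinned cell held a UMI of 2.32, 2.25 and 1.92 members on average in the anti-PD-1 replicates and of 1.67 with IgG, and 4.50%, 5.81% and 7.79% of the cells against 13.4% held none.

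**Figure D1:**
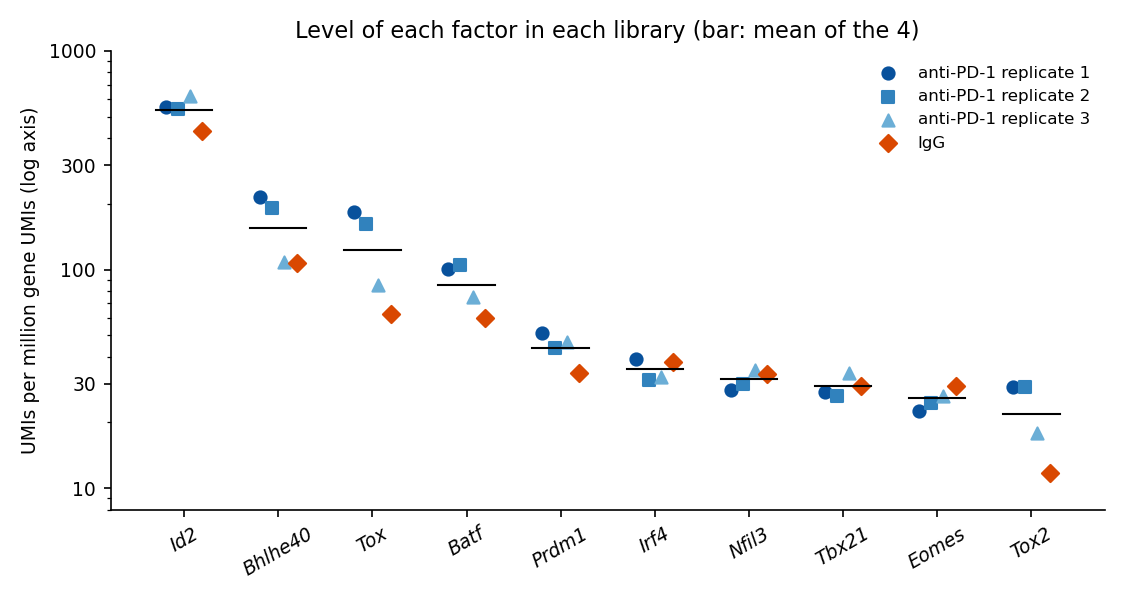
Level of each factor in each of the 4 libraries, in CPM on a log axis, with a bar at the mean of the 4. Id2 stands between 429 and 618 in all libraries, whereas Tox, Tox2, Batf and Bhlhe40 are high in anti-PD-1 replicates 1 and 2 and lower in replicate 3 and IgG.

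To ask how anti-PD-1 changed these factors, the 3 anti-PD-1 libraries were compared with the IgG library. Tox, Tox2, Prdm1, Id2, Batf and Bhlhe40 had higher levels in each anti-PD-1 library than with IgG, as did 22% of 13810 genes, although the Bhlhe40 values of replicate 3 and IgG nearly met. Eomes had a lower level in each, as did 23.9%, and none of the members passed the test over all genes. By edgeR's quasi-likelihood test with Benjamini-Hochberg adjustment, 0 of 13810 genes (0%) and 0 of 10 members were called at an adjusted p under 0.05. At an unadjusted p under 0.05 there were 282 genes, including 5 members, and DESeq2 called 5 genes and 0 members, with 343 genes at an unadjusted p under 0.05. The median log2 difference was 0.47 over the members and 0.01 over all genes. In these sums, fewer cells of a type and less RNA per cell cannot be told apart.

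Of the exhaustion factors, Tox, the regulator most closely tied to the exhausted fate, had 183, 162 and 85.1 CPM in anti-PD-1 replicates 1, 2 and 3 and 62.7 CPM with IgG. Its paralogue Tox2 had 29.1, 29.1 and 17.9 CPM against 11.8 CPM. Both were highest in replicates 1 and 2, and replicate 3 lay between these and IgG. The log2 difference was 1.21 ± 0.45 (SE) for Tox and 1.12 ± 0.33 for Tox2, each with an edgeR adjusted p of 0.987.

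Prdm1, which encodes BLIMP-1, had 51.2, 44.0 and 46.9 CPM with anti-PD-1 and 33.6 CPM with IgG. Id2, the partner that keeps E proteins off DNA, had 552, 543 and 618 CPM against 429 CPM. In these 2 genes replicate 3 lay with replicates 1 and 2 and not with IgG. Their log2 differences were 0.51 ± 0.14 and 0.43 ± 0.13, with an edgeR adjusted p of 0.987 each and unadjusted p of 0.0126 and 0.0207. Batf had 101, 105 and 75.2 CPM against 60.1 CPM, a log2 difference of 0.65 ± 0.23 (edgeR adjusted p = 0.987). Its replicate 3 value was again the nearest to IgG.

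Bhlhe40 had 215, 191 and 108 CPM with anti-PD-1 and 108 CPM with IgG, so that replicate 3 and IgG had nearly equal values (log2 ratio 0.00). The T-box factors differed little, with 27.5, 26.5 and 33.6 CPM against 29.3 CPM for Tbx21 and 22.5, 24.7 and 26.4 CPM against 29.5 CPM for Eomes. Irf4 had 39.0, 31.4 and 32.3 CPM against 37.8 CPM, and Nfil3 28.3, 29.9 and 34.6 CPM against 33.3 CPM. For Tbx21, Irf4 and Nfil3 the IgG value lay within the range of the anti-PD-1 libraries.

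**Figure D2:**
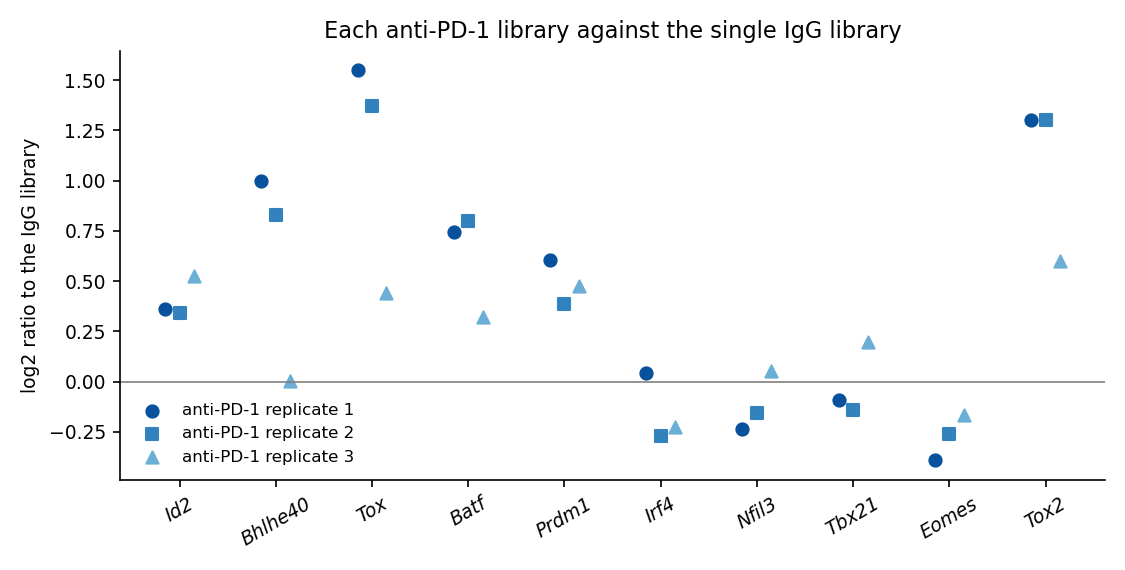
Log2 ratio of each anti-PD-1 library to the single IgG library for the 10 factors, with the line at no difference. Tox, Tox2, Prdm1, Id2 and Batf lie above 0 in all 3 replicates, as does Bhlhe40 with replicate 3 barely above the line, and replicate 3 lies below the others for Tox, Tox2, Batf and Bhlhe40.

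The outcome rested on replicate 3. Without it, the spread came from replicates 1 and 2 alone, which may be channels of 1 pool, and the IgG library was taken to vary like them. In that fit 12.4% of 13327 genes were called higher and 12.5% lower, and 7 members were called, with log2 differences of 1.48 for Tox, 1.32 for Tox2, 0.94 for Bhlhe40, 0.79 for Batf, 0.52 for Prdm1, 0.37 for Id2 and -0.30 for Eomes. Without replicate 1 or replicate 2, 0 members were called by edgeR. A split by guide composition, taken from earlier work on these data, puts replicates 1 and 2 in 1 batch and replicate 3 with IgG in another. No label gives this batch, and the guide values behind it are not shown here. With that batch as a term the fit compared replicate 3 with IgG, 1 library against 1, and again drew its spread from replicates 1 and 2 alone. It called 1.14% of 13810 genes higher and 0.905% lower, and 4 members higher, namely Tox2, Id2, Prdm1 and Tox. As ratios of replicate 3 to IgG, which have no replicate check, these were 0.60, 0.53, 0.48 and 0.44 on the log2 scale. Within replicates 1 and 2 there was no IgG library, so that no within-batch value could be given for them. The IgG library was also the shallowest per cell. After every cell was thinned to 3000 UMIs before summing, the median member difference was 0.43 and no member was called.

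To relate the factors to marker-defined states, 7 short marker lists that contain no member were scored in 22412 cells thinned to 3000 UMIs. The top 20% of each library were compared with its other cells. Cells tied at the cut-off were not counted as high, which left high groups of 15.7% of replicate 2 for granzymes and 18.6% for antigen response. Such a group is a range of a score and not a cell type, and between 607 cells for the cycling list and 2799 for the granzyme list lay within 0.1 SD of the cut-off. UMIs were summed over the cells of each side and library and fitted in edgeR with the library as a block. A member counted as changed at an adjusted p under 0.05 with an absolute log2 difference of at least 0.3. Over the 7 lists, 26 of 70 member tests were called, beside 15% of 87377 tests over all genes. Without the library block 7 member tests were called, beside 4.67% of 84051. The contrasts share cells, most of all the effector cytokine and antigen response lists, with 2130 cells high for both, which are 47.5% of the former and 48.7% of the latter.

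**Figure D3:**
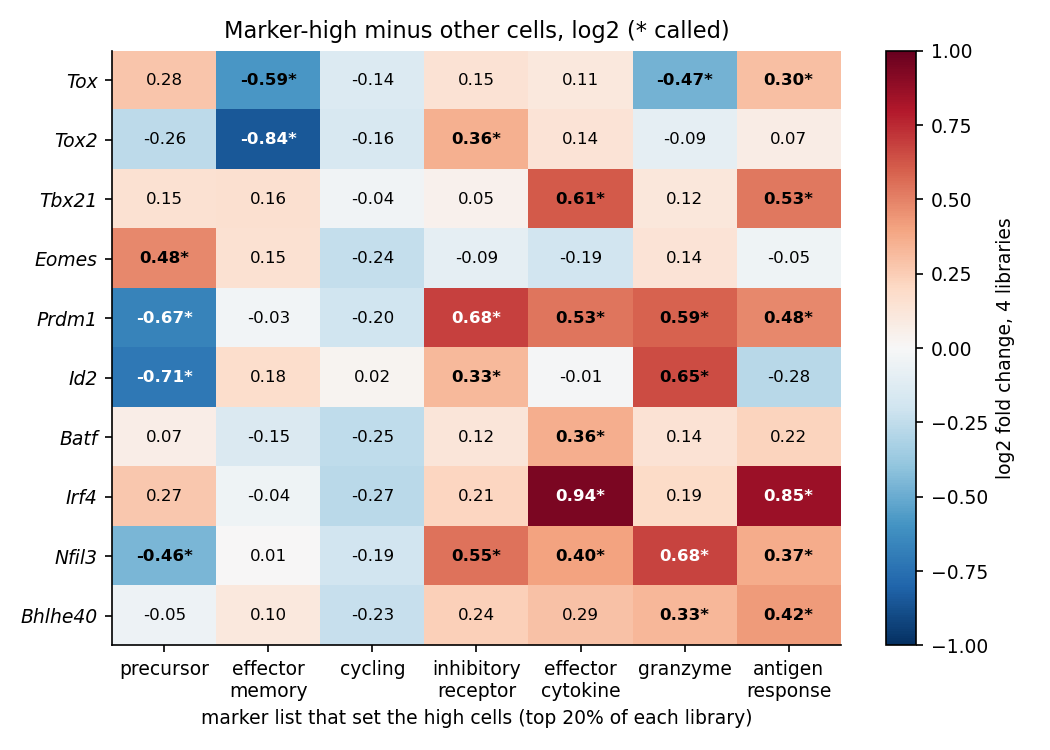
Log2 difference of each factor between marker-high and other cells of the same library, fitted over the 4 libraries, for 7 marker lists, on a colour scale from -1 to 1 with an asterisk where a member was called. Prdm1 and Nfil3 are called for 5 lists each, whereas the cycling column holds no call.

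Cells high for the precursor list (Tcf7, Slamf6, Xcl1, Cxcr5 and Ccr7) had more Eomes and less Prdm1, Id2 and Nfil3. The 1 rising member stood beside 8.78% of 12498 genes that rose, and the 3 falling members beside 9.37% that fell. Eomes, a T-box factor also found in memory cells, had 27.2, 27.0, 36.8 and 39.6 CPM in the precursor-high cells of anti-PD-1 replicates 1, 2 and 3 and IgG, and 21.4, 24.1, 23.7 and 26.8 CPM in the others. The lowest precursor-high library thus exceeded the highest value of the other cells, if only narrowly, and the log2 difference was 0.48 ± 0.06 (edgeR adjusted p = 9.4e-06).

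Id2 had 394, 367, 415 and 237 CPM in precursor-high cells against 589, 585, 669 and 474 CPM, in the same order of libraries, a fall of -0.71 ± 0.05 on the log2 scale (edgeR adjusted p = 2.4e-09). Prdm1 had 36.3, 28.3, 35.5 and 18.3 CPM against 54.7, 47.8, 49.7 and 36.7 CPM, a fall of -0.67 ± 0.06 (edgeR adjusted p = 2.72e-07). Both were lower in all 4 libraries with no overlap, although the Prdm1 values of 36.3 and 36.7 nearly met. Nfil3 had 23.9, 22.1, 28.8 and 21.4 CPM against 29.3, 31.7, 36.0 and 36.1 CPM, a fall of -0.46 ± 0.07 (edgeR adjusted p = 2.82e-05), with the nearest values at 28.8 and 29.3. These 4 members without overlap stood beside 14.9% of all genes. The 10 members had a median difference of 0.01, against -0.00 over all genes. Tox, at 0.28 ± 0.04, was under the limit of 0.3 and passed it without replicate 1 (0.31) or replicate 2 (0.32). Likewise Tox2 was called lower without replicate 3 (-0.40), and Irf4 was called higher without IgG (0.30). With all libraries these were -0.26 and 0.27. Tox2 was also called with the top 10% (-0.59), Irf4 with sgNT cells (0.45), and Tox with sgNT cells (0.34) and without cycling-high cells (0.30). Tbx21, Batf and Bhlhe40 differed by 0.15, 0.07 and -0.05.

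Cells high for inhibitory receptors (Pdcd1, Havcr2, Lag3, Entpd1 and Tigit) had more Prdm1, Nfil3, Tox2 and Id2. The 4 rising members stood beside 6.1% of 12439 genes that rose and 6.17% that fell, and the lowest member was Eomes at -0.09. Prdm1 had 71.6, 56.9, 70.5 and 52.2 CPM in receptor-high cells and 46.8, 41.1, 41.7 and 28.9 CPM in the others, a rise of 0.68 ± 0.05 (edgeR adjusted p = 3.98e-07). Nfil3 had 37.7, 37.7, 47.4 and 46.7 CPM against 26.2, 28.1, 31.8 and 30.3 CPM, a rise of 0.55 ± 0.05 (edgeR adjusted p = 8.33e-07). In both genes every receptor-high library lay above every value of the other cells, and 9.23% of genes had no overlap in either direction.

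Id2 rose by 0.33 ± 0.02 and Tox2 by 0.36 ± 0.06, each in 4 of 4 libraries, with ranges that overlapped between libraries. Tox, named for exhaustion, had 190, 173, 98.7 and 68.0 CPM in receptor-high cells against 182, 159, 82.2 and 61.3 CPM, a difference of 0.15 ± 0.04 that was under the limit. The difference between libraries in Tox was thus far wider than that between these cells. The Tox2 rise was under the limit with sgNT cells alone (0.05), with scores at 2000 UMIs (0.19), without cycling-high cells (0.27) and with the top 10% (0.29). The Id2 rise was likewise under it with sgNT cells (0.28), with scores at 2000 UMIs (0.29) and with no filter (0.297). Bhlhe40, at 0.24, was called without replicate 1 (0.32) and with sgNT cells (0.40). Irf4, at 0.21, was called with sgNT cells (0.53), and Batf and Tbx21 differed by 0.12 and 0.05. Receptor-high cells were the shallower ones, with a median of 15170 against 17249 UMIs in replicate 1 and 5711 against 6746 with IgG, and the part of depth in these differences was not tested.

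The ends of this axis were then set against each other, by comparing cells high for the precursor list alone with cells high for the inhibitory receptor list alone. The 512 cells high for both, 11.4% of each group, were left out. In this contrast 1 member was higher in precursor-high cells, beside 11.9% of 11184 genes, and 4 were lower, beside 11.9%. It shares most of its cells with the previous pair of contrasts and is no independent support for them.

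Prdm1 had 32.4, 26.0, 29.9 and 15.9 CPM at the precursor end and 73.2, 58.1, 69.0 and 53.5 CPM at the receptor end, a log2 difference of -1.29 ± 0.09 (edgeR adjusted p = 3.75e-07). Id2 had 368, 352, 393 and 228 CPM against 686, 684, 736 and 543 CPM, a difference of -0.97 ± 0.05 (edgeR adjusted p = 6.59e-08). Nfil3 had 22.8, 21.5, 27.1 and 19.99 CPM against 38.8, 39.0, 48.0 and 48.2 CPM, a difference of -0.92 ± 0.08 (edgeR adjusted p = 3.38e-06). For these 3 genes, whose promoter windows are printed above, no library at the precursor end reached any library at the receptor end.

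Eomes ran the other way, with 27.9, 27.7, 37.8 and 40.3 CPM at the precursor end and 22.4, 24.9, 23.0 and 27.3 CPM at the receptor end (0.50 ± 0.08, edgeR adjusted p = 0.000366). The gap between the nearest libraries was small, 27.7 against 27.3 CPM, and with sgNT cells alone the difference was 0.29, not called (edgeR adjusted p = 0.402). Tox2 had 21.4, 20.03, 17.9 and 9.76 CPM against 37.2, 39.1, 19.9 and 14.2 CPM (-0.57 ± 0.11, edgeR adjusted p = 0.00133), and the difference was wide in replicates 1 and 2 and narrow in replicate 3. It was not called with sgNT cells alone (-0.27) or with scores at 2000 UMIs (-0.24). Tox had 209, 169, 97.9 and 79.1 CPM against 195, 168, 96.0 and 66.4 CPM, a difference of 0.12 ± 0.05 that was not called (edgeR adjusted p = 0.0542). Tbx21, Batf and Irf4 differed by 0.11, -0.05 and 0.06 on the log2 scale with libraries on both sides of 0, and Bhlhe40 by -0.26, which was called without replicate 1 (-0.39), with sgNT cells (-0.42) and without cycling-high cells (-0.32).

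**Figure D4:**
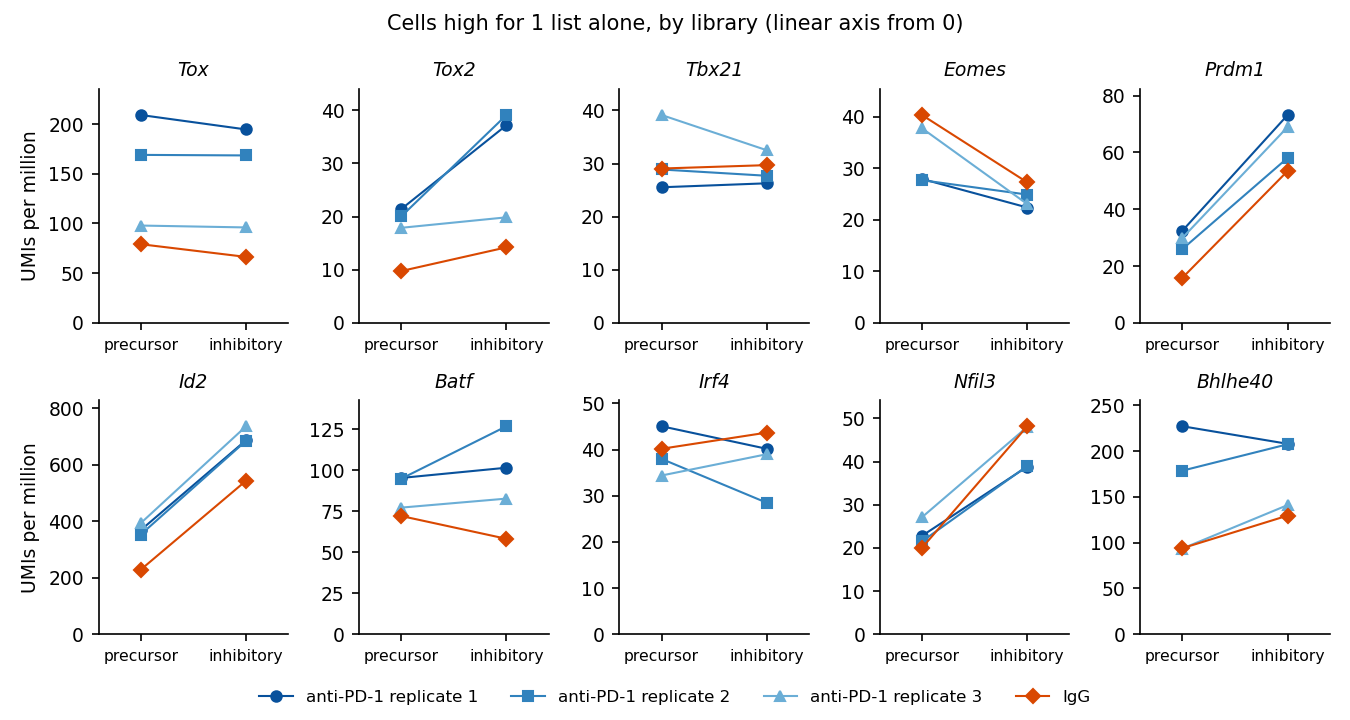
Level of each factor in CPM, on linear axes from 0, in cells high for the precursor list alone and for the inhibitory receptor list alone, with a line for each library. Lines for Prdm1, Id2 and Nfil3 rise in all 4 libraries without overlap between the ends, those for Eomes fall, and those for Tox stay nearly level while the libraries stand apart.

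Cells high for effector cytokines (Ifng, Tnf, Ccl3, Ccl4 and Il2) had more Irf4, Tbx21, Prdm1, Nfil3 and Batf. The 5 rising members stood beside 7.51% of 12470 genes that rose and 8.81% that fell, and the lowest member was Eomes at -0.19. Irf4, a factor whose level follows signal strength at the T cell receptor, had 59.7, 46.9, 53.9 and 57.5 CPM in cytokine-high cells and 33.4, 27.1, 26.7 and 32.5 CPM in the others, a rise of 0.94 ± 0.05 (edgeR adjusted p = 3.28e-08). Tbx21, whose product T-bet activates Ifng, had 31.3, 33.3, 48.8 and 41.3 CPM against 26.5, 24.7, 29.6 and 26.0 CPM, a rise of 0.61 ± 0.07 (edgeR adjusted p = 1.66e-05). Neither gene overlapped between the groups, as 15.1% of genes did not. Prdm1 rose by 0.53 ± 0.09, Nfil3 by 0.40 ± 0.06 and Batf by 0.36 ± 0.04, each in 4 of 4 libraries with overlapping ranges. The libraries stood apart in these rises, most of all for Prdm1, with log2 ratios of 0.15 and 0.12 in replicates 1 and 2 and of 0.74 and 0.75 in replicate 3 and IgG. In the same order Nfil3 had ratios of 0.26, 0.05, 0.47 and 0.44, Tbx21 of 0.24, 0.43, 0.72 and 0.67 and Batf of 0.20, 0.25, 0.36 and 0.38. Tox, Tox2 and Id2 differed by 0.11, 0.14 and -0.01. Bhlhe40, at 0.29 ± 0.04, was called without replicate 1 (0.32) or replicate 2 (0.33) and, at 0.31 each, with DESeq2, the top 10% and scores at 2000 UMIs. The Nfil3 rise was not called with sgNT cells (0.298).

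Cells high for antigen response genes (Nr4a1, Nr4a2, Nr4a3, Egr1 and Egr2) gave a like list with Tox and Bhlhe40 added and Batf left out. Here 6 members rose, beside 4.76% of 12493 genes that rose and 3.86% that fell, and the lowest member was Id2 at -0.28. Irf4 had 57.9, 52.7, 52.8 and 54.4 CPM in these cells and 35.0, 26.9, 27.5 and 33.7 CPM in the others, a rise of 0.85 ± 0.05 (edgeR adjusted p = 1.94e-08), and it was the single member whose groups did not overlap, beside 9.16% of genes. Tbx21 rose by 0.53 ± 0.07, Prdm1 by 0.48 ± 0.08, Bhlhe40 by 0.42 ± 0.04, Nfil3 by 0.37 ± 0.07 and Tox by 0.30 ± 0.03, each in 4 of 4 libraries. Here too Prdm1 had low ratios in replicates 1 and 2 (0.16 and 0.17) and high ones in replicate 3 and IgG (0.72 and 0.64), as did Tbx21 with 0.33 and 0.14 against 0.65 and 0.68. Nfil3 had 0.17, 0.17, 0.62 and 0.29. Batf, Tox2 and Eomes differed by 0.22, 0.07 and -0.05. Tox had 223, 184, 97.8 and 73.0 CPM against 175, 157, 82.2 and 60.0 CPM. Its rise lay at the limit and was not called without replicate 1 (0.28), without IgG (0.299), with sgNT cells (0.27) or with no filter (0.28). Nfil3 was not called without replicate 3 (0.24), and with sgNT cells neither Nfil3 (0.44, edgeR adjusted p = 0.215) nor Tbx21 (0.44, edgeR adjusted p = 0.0524) was called. Id2 was called lower with the top 10% (-0.41), with no filter (-0.30) and without cycling-high cells (-0.30).

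Granzyme-high cells (Gzmc, Gzmd, Gzme, Gzmf and Prf1) had more Nfil3, Id2, Prdm1 and Bhlhe40 and less Tox. The 4 rising members stood beside 7.03% of 12495 genes and the 1 falling member beside 6.27%. Id2 had 780, 761, 806 and 606 CPM in granzyme-high cells and 487, 496, 568 and 381 CPM in the others, a rise of 0.65 ± 0.03 (edgeR adjusted p = 3.59e-10). Nfil3 had 33.3, 42.5, 51.7 and 48.5 CPM against 26.8, 27.1, 29.9 and 29.3 CPM, a rise of 0.68 ± 0.06 (edgeR adjusted p = 1.02e-06). Prdm1 rose by 0.59 ± 0.07, the third member without overlap beside 11.1% of genes, since its lowest granzyme-high value of 49.9 CPM was above the highest of the others at 48.6 CPM. Tox had 137, 138, 58.9 and 44.6 CPM against 197, 167, 92.2 and 67.0 CPM, a fall of -0.47 ± 0.05 in 4 of 4 libraries (edgeR adjusted p = 1.92e-06). Bhlhe40 rose by 0.33 ± 0.07, mainly in replicate 3 (145 against 97.7 CPM) and IgG (137 against 98.5 CPM), and was under the limit without replicate 3 (0.24) or IgG (0.27). It was also not called with DESeq2 (0.34, adjusted p = 0.0739) or with sgNT cells (0.35, edgeR adjusted p = 0.0812), where the Prdm1 rise was not called either (0.52, edgeR adjusted p = 0.0788). Tox2 was called lower with the top 10% (-0.32). Prdm1 also had smaller ratios in replicates 1 and 2 (0.31 and 0.36) than in replicate 3 and IgG (0.69 and 0.80). Irf4, Batf, Eomes, Tbx21 and Tox2 differed by 0.19, 0.14, 0.14, 0.12 and -0.09. Of granzyme-high cells, 32.3% were also receptor-high and 33.3% cytokine-high. They were deeper than the others, with medians of 20154 against 16231 UMIs in replicate 1 and 6890 against 6423 with IgG. The part of depth in these differences was not tested.

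Effector memory-high cells (Klf2, S1pr1, Gzma, Il7r and Ly6c2) had less of both TOX genes and no other called change. The 2 falling members stood beside 3.91% of 12490 genes that fell and 5.86% that rose, and the highest member was Id2 at 0.18. Tox2 had 20.8, 19.5, 9.74 and 5.92 CPM in these cells and 30.9, 31.3, 19.7 and 13.1 CPM in the others, a fall of -0.84 ± 0.08 (edgeR adjusted p = 2.64e-06). Tox had 154, 128, 50.5 and 39.996 CPM against 190, 170, 93.0 and 67.7 CPM, a fall of -0.59 ± 0.07 (edgeR adjusted p = 1.34e-05). Both fell in 4 of 4 libraries, while the levels overlapped between libraries, with replicates 1 and 2 higher throughout. The Tox ratios were -0.30 and -0.41 in replicates 1 and 2 and -0.88 and -0.76 in replicate 3 and IgG. Tbx21, Eomes and Bhlhe40 differed by 0.16, 0.15 and 0.10, and Batf, Irf4, Prdm1 and Nfil3 by -0.15, -0.04, -0.03 and 0.01. Effector memory-high cells were shallower than the others, with medians of 14477 against 17334 UMIs in replicate 1 and 6182 against 6622 with IgG.

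In cycling cells, chosen by Mki67, Top2a, Cdk1, Ccnb2, Birc5, Tyms, Mcm5 and Rrm2, 0 members were called by edgeR and 0 by DESeq2, beside 13.5% of 12492 genes higher and 12.8% lower. By edgeR's adjusted p alone 8 members were under 0.05, and the share of all genes at that threshold without the limit was not counted. The differences ran from -0.27 for Irf4 to 0.02 for Id2, all under the limit. Between these, Batf, Eomes, Bhlhe40, Prdm1 and Nfil3 differed by -0.25, -0.24, -0.23, -0.20 and -0.19, and Tox2, Tox and Tbx21 by -0.16, -0.14 and -0.04. Irf4 was called without IgG (-0.36), and with sgNT cells alone 5 members were called lower, beside 10.1% of 9917 genes, namely Eomes (-0.49), Prdm1 (-0.46), Irf4 (-0.38), Bhlhe40 (-0.36) and Nfil3 (-0.32). Cycling-high cells were deeper than the others, with medians of 23056 against 15584 UMIs in replicate 1 and 9141 against 6068 with IgG.

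Other transcription factors and targets, from lists chosen beside the members, were read in the same contrasts, and no list was tested as a set. Of the precursor and memory factors other than Tcf7, 6 of 9 rose with the precursor list and 0 of 9 fell. Of all genes 8.78% rose and 9.37% fell. Id3 differed by 2.49 and Bcl6 by 2.10 on the log2 scale. In inhibitory receptor-high cells 0 of 10 rose and 6 of 10 fell, with Id3 at -2.13 and Tcf7 at -1.88. There 6.1% of all genes rose and 6.17% fell. Id3, a relative of Id2, had 12.6 CPM in precursor-high and 2.33 CPM in other cells, so that Id2 and Id3 moved in opposite directions. At the precursor end against the receptor end Id3 differed by 4.23, at 13.6 against 0.796 CPM.

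Partners of BATF and IRF4 in the AP-1 and IRF families rose for 4 of 10 genes in cytokine-high cells, 6 of 10 in antigen response-high cells and 5 of 10 in granzyme-high cells, beside 7.51%, 4.76% and 7.03% of all genes. In precursor-high and in receptor-high cells 2 of 10 rose and 1 of 10 fell. The shares of all genes there were 8.78% and 6.1% higher and 9.37% and 6.17% lower. In cytokine-high cells 0 of 10 fell, and Irf8 (1.14) and Fos (0.71) had the largest rises. In antigen response-high cells 1 of 10 fell, namely Batf3 (-2.24, at 0.988 against 4.93 CPM), and Fos (1.06) had the largest rise. NFAT, NR4A and other exhaustion-linked factors rose for 6 of 8 genes in cytokine-high cells, with Nr4a1 at 2.11 and Nr4a3 at 2.003, and 1 of 8 fell, namely Ikzf2 at -0.47. In precursor-high cells 5 of 8 rose and 0 fell, and in cycling-high cells 5 of 8 fell and 0 rose. Of all genes, 7.51% rose and 8.81% fell in cytokine-high cells, 8.78% rose in precursor-high cells and 12.8% fell in cycling-high cells. Of the E proteins bound by ID2, 1 of 3 was called higher in precursor-high cells, beside 8.78% of all genes. In receptor-high or granzyme-high cells 0 of 3 were called by edgeR, and the median differences were -0.05 and -0.09.

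Target genes of T-bet and EOMES did not move as 1 group. With the precursor list 2 of 9 rose, led by Ifng at 1.40, and 7 of 9 fell, led by Gzmb at -1.36. Of all genes 8.78% rose and 9.37% fell there, while Eomes rose and Tbx21 differed by 0.15. In receptor-high cells 5 of 9 rose, with Prf1 at 0.99 and Ccl5 at 0.75, and 1 of 9 fell. Of all genes 6.1% rose and 6.17% fell there, while Eomes differed by -0.09 and Tbx21 by 0.05. RUNX and ETS factors had 1 of 5 higher and 3 of 5 lower at the precursor end against the receptor end. Runx3 differed by -0.57 and Ets1 by -0.46, and 11.9% of all genes were higher and 11.9% lower. Of TOX, T-box, BHLHE and PRDM relatives only 3 of 5 could be tested, and Bhlhe41, called higher with the precursor list (1.52), had 1.49 CPM there.

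Co-detection of the members was described within each library, as the share of thinned cells with a UMI of both genes over the product of their shares, which is 1 when the genes are found independently. Cells of a library share their depth and are not replicates, so that no test is given. Of 45 pairs, 13 were above 1 in all 4 libraries, 4 were below 1 in all 4 and 28 fell on both sides, with a median of 1.02. Pairs of other genes were not scored, so that no share over all genes stands beside these counts. Tox and Tox2 had the highest mean, with ratios of 1.14, 1.34 and 1.76 in the anti-PD-1 replicates and 1.57 with IgG from 99, 107, 121 and 90 cells with both. Prdm1 and Nfil3 followed with 1.48, 1.33, 1.45 and 1.40, and Prdm1 and Irf4 with 1.20, 1.46, 1.32 and 1.37. Prdm1 was in 5 of the 13 pairs above 1, the others being with Bhlhe40 (mean 1.16), Batf (1.14) and Id2 (1.09).

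Among the pairs below 1, Tox and Id2 had the narrowest spread, with a mean of 0.94 ± 0.02 (SD, n = 4). The T-box pair Tbx21 and Eomes had ratios of 0.42, 0.92, 0.86 and 0.96 from 5, 14, 39 and 65 cells, so that the lowest value rests on 5 cells. Tox2 and Irf4 (0.76 ± 0.11) and Tox2 and Nfil3 (0.85 ± 0.15) were also below 1 in all 4. At 2000 UMIs, 15 of these 17 pairs kept the side of their mean and 8 kept it in all 4 libraries, and with sgNT cells alone 11 and 7 did. The mean for Tbx21 and Eomes was 1.07 at 2000 UMIs and 0.50 with sgNT cells.

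**Figure D5:**
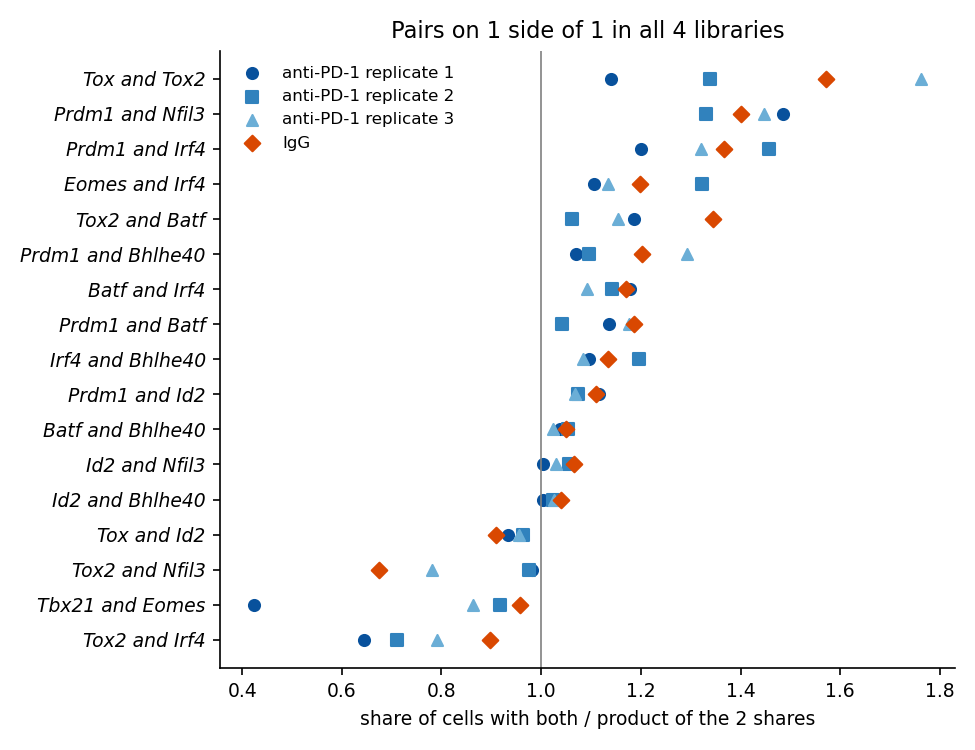
Ratio of the share of cells with both genes to the product of their shares, for the 17 pairs on the same side of 1 in all 4 libraries, with a point for each library. Tox with Tox2, Prdm1 with Nfil3 and Prdm1 with Irf4 lie farthest above 1, while the ratio for Tox with Id2 is just below 1 in every library.

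The genes most like each member across cells were named by the mean over the 4 libraries of the correlation of log counts in thinned cells, among 5072 genes for most members. The values are weak in such sparse counts, share depth and library, and are a description alone. Id2 had the highest, at 0.247 with Gzmb, 0.220 with Prf1 and 0.193 with Ccl5. Irf4 was most like Ccl4 (0.131), Ccl3 (0.093) and Nr4a3 (0.085), Tbx21 most like Ccl4 (0.057), Rgcc (0.055) and Ccl3 (0.047), and Batf most like Ccl4 (0.074), Irf8 (0.064) and Rilpl2 (0.058). The chemokine gene Ccl4 thus headed the list of 3 members.

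Prdm1 was most like the inhibitory receptor gene Ctla4 (0.123), followed by Ccl5 (0.097) and Ccl4 (0.093), and Ctla4 was also the third gene for Nfil3 (0.071) and Bhlhe40 (0.0998). Nfil3 was most like Hilpda (0.090) and Bnip3 (0.074), both genes induced by hypoxia, and Bhlhe40 most like Junb (0.132) and then Hilpda (0.103). Tox2 was most like Tox (0.070), then Cd8a (0.053) and Nkg7 (0.051), and Tox most like Trbc2 (0.097), Nr4a2 (0.084) and Malat1 (0.081). Eomes had the lowest leading value, 0.044 with Crtam, then 0.043 with Il10ra and 0.039 with Ms4a4b.

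To ask whether losing a metabolic gene shifted these factors under anti-PD-1, cells with guides to each of 82 targets were compared with sgNT cells over the 3 anti-PD-1 libraries. No member passed the test for any target, with 0 of 820 member tests called by edgeR, beside 0.0601% of 772358 tests over all targets and genes. At an unadjusted p under 0.05 there were 39 member tests, which is 4.76% against 4.39% of all tests. With no filter on low counts the number was 99, or 12.1% against 3.19%, over 19469 genes in place of 9419. The added genes have low counts, whereas all members passed the filter, so that these shares compare unlike sets of genes. The member counts were the same in both settings, and only the fit differed. DESeq2 was not run for this comparison. With the filter, 7 of the 82 tests of Id2 were at an unadjusted p under 0.05, as were 5 each for Eomes, Prdm1 and Nfil3, 4 each for Bhlhe40 and Irf4, 3 each for Tox2 and Tbx21, 2 for Tox and 1 for Batf. The median log2 difference over the targets was 0.15 for Eomes, 0.05 for Tox2, 0.04 for Bhlhe40 and -0.002 for Irf4. It was -0.17 for Nfil3, -0.09 for Prdm1, -0.07 for Id2 and -0.04 each for Tox, Tbx21 and Batf. The lowest adjusted p belonged to Id2 with sgDhodh, which targets an enzyme of pyrimidine synthesis. That target entered with 11 cells of replicate 3 alone, with Id2 at 316 CPM from 40 UMIs against 634 CPM in sgNT cells of the same library. As 1 sample with a spread taken from the other targets, it has no replicate check, and its p is not given.

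Id2 had lower values with sgSetd1b, which targets a histone H3 lysine methyltransferase, at 501, 282 and 471 CPM against 559, 576 and 634 CPM in sgNT cells of replicates 1, 2 and 3 (-0.50 ± 0.17, edgeR adjusted p = 0.353). With sgPik3cd, which targets the catalytic delta subunit of phosphoinositide 3-kinase, Id2 had 508, 428 and 409 CPM against the same sgNT values (-0.40 ± 0.16, edgeR adjusted p = 0.428). All 3 libraries lay below sgNT for both targets, but the differences did not pass the adjustment over all genes. The sgSetd1b values rest on 18, 13 and 45 cells and the sgPik3cd values on 25, 28 and 210. Without the filter on low counts 3 of 820 member tests passed (0.366%), beside 0.0586% of 1596458 tests. They were Id2 with sgSetd1b at -0.56 (edgeR adjusted p = 0.0112), with sgPik3cd at -0.47 (edgeR adjusted p = 0.0226) and with the single sample of sgDhodh. As above, the share over all tests includes low-count genes, which the members are not. Without cells holding markers of other cell types 1 member test passed (0.122%), beside 0.0369% of 758746, and it was the sgDhodh sample again.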

How the data were processed

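CROP-seq, which reads guides and transcripts in the same cells, gave 4 channels of a 3′ assay, each with a gene expression and a guide library, sorted 7 days after transfer. Raw UMI counts per gene were deposited as matrices. The authors had produced them from reads mapped to mm10 in Cell Ranger 3.1.0, and its deposited guide calls assigned the cells. The submitters' processing notes also list Seurat and R 3.6.3. Groups followed the labels, and a replicate number is only the sample order.

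Barcodes with exactly 1 guide, log10 UMIs no more than 3 median absolute deviations from the median of their library and at most 10% mitochondrial UMIs were kept, which left 48182760 to 88543446 UMIs per library. Of the kept cells, 80 held at least 10 UMIs of markers of other cell types. No doublet caller was run beyond the requirement of 1 guide.

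For states, each cell was thinned to 3000 UMIs and scored by the mean z-score of log counts within its library, which left out 36 shallower cells of replicate 3 and 611 of IgG. UMI counts were summed over cells and tested with edgeR 4.0.16 (quasi-likelihood, filterByExpr, TMM, Benjamini-Hochberg adjustment over all genes of a contrast at 0.05), with the library as a block for states and knockouts and no covariate for treatment. This takes the spread of the single IgG library to equal that of the others, and likewise of targets with 1 library. Knockouts needed 10 cells per target and library, and all targets entered 1 fit whose null deviances were computed in R and checked against edgeR's own test for 1 target, where 60 of 60 calls were shared. Scripts were tested on simulated data. DESeq2 1.42.0 was an alternative. Analyses used R 4.3.3, limma 3.58.1, Python 3.11.15, pandas 2.3.3, numpy 2.4.6, matplotlib 3.10.9, scipy 1.17.1 and the random seed 20240607. A log2 difference is printed with its standard error, a mean with the SD of the libraries. Shares of cells carry counting error only.

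The members and lists were chosen with earlier results of these data known. Every member is given in the treatment and marker contrasts, and over all targets for knockouts. Of other factors, names were taken from the 2 largest changes among the called genes of a list, and 3 genes per member were named by likeness among those in at least 5% of the cells of every library.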

Additional observations from a re-analysis of the deposited data

Results flagged for a closer look

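Of 80 comparisons of a member between marker-defined groups, 3 had every anti-PD-1 library on 1 side of no difference and the IgG library on the other. The difference between treatments was not tested in any of them, since there was 1 IgG library. Values are log2 ratios within a library.

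In effector memory-high against other cells, Tbx21 had a ratio of -0.031 with IgG and of 0.17 to 0.34 in the anti-PD-1 libraries. In cycling-high against other cells, Tbx21 had 0.077 with IgG and -0.13 to -0.05 with anti-PD-1. Between the precursor end and the inhibitory receptor end, Batf had 0.31 with IgG and -0.42 to -0.09 with anti-PD-1. Pooled over the libraries, none of the 3 was called by edgeR.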

How the results depend on the processing

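The calls for marker-defined states kept their direction throughout: over the 31 called differences and all alternatives, 329 values stayed on their side of the threshold, 43 fell under it, and none changed sign. Of the 43, 20 came from the fit without the library block and 10 from sgNT cells alone. Without the block, which drops the pairing of both sums of a library, 7 of 70 member tests were called in place of 26 and 4.67% of all gene tests in place of 15%, with 2 for the precursor list, 0 for inhibitory receptors, 2 for cytokines, 0 for effector memory, 2 for granzymes and 1 for antigen response. With sgNT cells alone, granzymes and antigen response gave 3 calls each, beside 5.36% and 4.22% of genes, cycling gave 5 beside 22.4%, and 6 pairs of members were co-detected above 1 in all 4 libraries in place of 13. Scores at 2000 UMIs gave 2 calls for inhibitory receptors beside 11.1% of genes, and no filter on low counts gave 1 for cycling beside 17.8% and 3 for knockouts beside 0.0586%. Leaving out cells with markers of other types gave 1 knockout call. The batch term gave 4 called members for treatment.

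Leaving out each library in turn gave 0 to 7 called members for treatment (7 without replicate 3), 25 to 28 over the 7 lists beside 13.2% to 14.8% of all gene tests, 0 to 1 for cycling (1 without IgG, beside 23.1%), and 0 to 0 for knockouts. The cause of these changes was not tested. Replicate numbers do not pair the treatments. No paired analysis was possible because the treatments share no replicate beyond a number given by sample order.

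Differences that changed sign were all uncalled and near 0. For treatment they were Nfil3 with sgNT cells (0.041) and with the batch term (0.054), and Tbx21 when libraries were left out in turn (-0.096 to 0.061). With sgNT cells, receptor-high cells gave Tbx21 -0.16 and Eomes 0.15, effector memory Prdm1 0.11 and Nfil3 -0.051, antigen response Eomes 0.026, cycling Tox2 0.045 and Tbx21 0.062, and the precursor end against the receptor end Irf4 -0.084. With the top 10% they were cytokine Tox2 (-0.036), effector memory Nfil3 (-0.12), antigen response Tox2 (-0.060), cycling Tbx21 (0.00074), and Tbx21 (-0.069) and Irf4 (-0.058) between the ends. With scores at 2000 UMIs they were effector memory Prdm1 (0.020) and Irf4 (0.049), antigen response Eomes (0.0061) and Batf between the ends (0.018). Without cycling-high cells they were precursor Batf (-0.012) and effector memory Prdm1 (0.0058), with no filter effector memory Nfil3 (-0.014) and cycling Id2 (-0.014), and with DESeq2 cytokine Id2 (0.0027). Over the libraries left out in turn, precursor Batf ran from -0.034 to 0.12, receptor Tbx21 from -0.0087 to 0.079, cytokine Id2 from -0.056 to 0.019, effector memory Prdm1 from -0.048 to 0.0025 and Nfil3 from -0.031 to 0.045, antigen response Eomes from -0.063 to 0.0019, and between the ends Batf from -0.17 to 0.053 and Irf4 from -0.048 to 0.15.

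DESeq2 was not run for knockouts. With 1 IgG library and medians from 6329 to 16829 UMIs per cell, depth and treatment cannot be told apart, and single cells hold few UMIs of most members.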
